A study of Mus musculus with 8 samples.

Results

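The genes described here are 5 pairs of a testis retrogene and the X-linked parent gene from which it was copied: Cstf2t and Cstf2, Pdha2 and Pdha1, Utp14b and Utp14a, Cetn1 and Cetn2, and Rpl10l and Rpl10. Every probe set annotated to a listed gene alone was taken, by gene symbol or current alias, which gave 14 probe sets of the 45037 tested, and they represent 8 of the 10 genes, out of 18193 genes with a probe set of their own on the array. No probe set named both copies of a pair. The remaining 2 genes, Rpl10l and Rpl10, had no probe set of their own, and 2 probe sets annotated to Rpl10 together with the pseudogene Gm5621 were set aside. RNA was measured on Affymetrix arrays in round spermatids and in late spermatocytes from testes of Hr6b-/- (knockout) and Hr6b+/+ (wild type) male mice on an FVB background, 4 to 5 weeks of age, with 2 arrays for each of the 4 groups and 8 arrays in all. The knockout is present in every cell of the animal, Hr6b is another name of Ube2b, and the cell types were separated by sedimentation and a Percoll gradient. Nothing in the sources used here says how many mice stand behind an array, so the p-values reflect the spread between arrays alone, which may be technical.

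A retrogene arises when the spliced mRNA of a gene is reverse transcribed and inserted elsewhere in the genome, so that it usually lacks the introns of its parent and does not bring the promoter of the parent along. Many retrogenes of the mouse are autosomal copies of X-linked genes for functions that every cell needs. The X and Y chromosomes are silenced in spermatocytes in the course of meiotic prophase, and an autosomal copy can supply the product while the X-linked parent is silent. Cstf2 and Cstf2t encode the RNA-binding subunit of the cleavage stimulation factor, which takes part in the formation of the polyadenylated end of mRNAs. Pdha1 and Pdha2 encode the alpha subunit of pyruvate dehydrogenase, the mitochondrial enzyme that turns pyruvate into acetyl-CoA. Utp14a and Utp14b encode a protein of the small-subunit processome, in which the RNA of the small ribosomal subunit is processed, and a mutation in Utp14b causes the loss of spermatogonial differentiation of the jsd mouse. Cetn1 and Cetn2 encode centrins, calcium-binding proteins of centrioles and basal bodies, and Rpl10 and Rpl10l encode a protein of the large ribosomal subunit.

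On the RefSeq annotation of GRCm38.p6, the retrogenes lay on 5 different autosomes. Cstf2t spanned chr19:31082841-31086592, 3752 bases against the 27647 bases of Cstf2 at chrX:134059176-134086822, and it lay within the span of Prkg1. Pdha2 at chr3:141210004-141212355 covered 2352 bases and Pdha1 at chrX:160122219-160138430 covered 16212. Utp14b at chr1:78657825-78667601 had the same annotated start as Acsl3, its host gene, and its parent Utp14a was at chrX:48256934-48282450. Cetn2 was at chrX:72913565-72918344, while Rpl10l was at chr12:66283379-66284401 and Rpl10 at chrX:74270816-74273135.

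The 250 bases before the annotated start are shown for both copies of the pairs Cstf2t/Cstf2 and Pdha2/Pdha1, to set the upstream sequence of a retrogene beside that of its parent, and for Utp14a and Cetn2, the other parents whose signal differed between the cell types. The sequences are from RefSeq (GRCm38.p6) and read 5′ to 3′ on the strand of the gene. Capitals mark matches on either strand to 1 of 4 motifs, where TGACG stands for the CRE half-site, GGGCGG for the GC box, CCAAT for the box of that name and TATAAA for the TATA box. The windows are chr19:31082591-31082840 and chrX:134058926-134059175 on the plus strand, chr3:141212356-141212605 and chrX:160138431-160138680 on the minus strand, chrX:48256684-48256933 on the plus strand and chrX:72918345-72918594 on the minus strand.
Cstf2t: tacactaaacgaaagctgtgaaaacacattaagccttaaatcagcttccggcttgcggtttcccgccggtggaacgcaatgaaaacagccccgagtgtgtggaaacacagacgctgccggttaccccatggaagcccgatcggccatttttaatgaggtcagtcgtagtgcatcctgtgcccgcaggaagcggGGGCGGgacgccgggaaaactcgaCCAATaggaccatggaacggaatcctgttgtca
Cstf2: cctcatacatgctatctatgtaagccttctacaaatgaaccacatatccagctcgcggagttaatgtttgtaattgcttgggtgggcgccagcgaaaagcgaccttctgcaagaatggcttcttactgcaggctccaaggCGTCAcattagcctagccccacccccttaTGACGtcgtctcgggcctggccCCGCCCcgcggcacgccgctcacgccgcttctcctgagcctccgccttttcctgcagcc
Pdha2: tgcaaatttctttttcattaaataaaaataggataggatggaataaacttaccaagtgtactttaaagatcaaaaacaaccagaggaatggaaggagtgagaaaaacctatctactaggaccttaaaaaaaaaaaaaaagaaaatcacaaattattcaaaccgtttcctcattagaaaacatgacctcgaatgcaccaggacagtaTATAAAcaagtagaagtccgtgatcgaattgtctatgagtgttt
Pdha1: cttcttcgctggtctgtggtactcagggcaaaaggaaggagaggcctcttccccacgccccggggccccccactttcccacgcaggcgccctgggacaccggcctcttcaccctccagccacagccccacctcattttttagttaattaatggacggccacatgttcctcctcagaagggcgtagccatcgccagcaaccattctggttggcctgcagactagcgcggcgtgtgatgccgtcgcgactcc
Utp14a: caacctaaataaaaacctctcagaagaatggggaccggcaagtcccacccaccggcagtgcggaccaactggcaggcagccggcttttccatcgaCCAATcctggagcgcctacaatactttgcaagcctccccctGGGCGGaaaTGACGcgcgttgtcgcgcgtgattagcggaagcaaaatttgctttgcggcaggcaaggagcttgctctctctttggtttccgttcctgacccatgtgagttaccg
Cetn2: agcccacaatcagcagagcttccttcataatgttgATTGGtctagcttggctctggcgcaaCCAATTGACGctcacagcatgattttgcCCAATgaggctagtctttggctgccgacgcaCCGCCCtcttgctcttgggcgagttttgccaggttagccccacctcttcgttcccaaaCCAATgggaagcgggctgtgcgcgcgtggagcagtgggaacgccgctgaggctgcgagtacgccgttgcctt

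The upstream sequences of Cstf2t and Cstf2 each held 1 GC box, with 19 and 17 CpG dinucleotides, and the CRE half-sites, 2 of them, were in the Cstf2 window. Pdha2 and Pdha1 differed more: the Pdha2 window had a GC content of 31.6%, 4 CpG and 1 TATA box, and the Pdha1 window had a GC content of 61.6%, 15 CpG and no match to the 4 motifs. The windows of Utp14a and Cetn2 each held a CRE half-site and a GC box, with 17 and 16 CpG, and Cetn2 had 4 CCAAT boxes. Over the 32851 windows of the same length in the table, the medians were a GC content of 52.4% and 6 CpG, and 17.8% held a CRE half-site, 32.7% a GC box, 33.8% a CCAAT box and 12.4% a TATA box. A match is a description of the letters and says nothing of the binding of a factor.

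Signal stands for the deposited log2 value on the linear scale, and a log2 fold change is the difference of 2 group means, with its standard error (SE) and p from limma, adjusted over the 45037 probe sets. Probe sets with an adjusted p under 0.05 are termed called, as higher or lower by the sign of the fold change. The arrays gave no exact p below 0.333 for 2 against 2, and their number limits the precision. Signals of different probe sets depend on their probes, so their levels were not ranked. The within-array difference between the copies of a pair was used only for its change between groups. Between 33.2% and 35.4% of the probe sets reached a signal of 100 on an array. The targeted gene, Ube2b, had 951 and 1061 in knockout spermatids and 833 and 824 in knockout spermatocytes, against 4599.5 and 4612 in wild type spermatids and 2855 and 3349 in wild type spermatocytes, on its brightest probe set. Markers of the cell types followed the labels between spermatids and spermatocytes, but also differed with genotype. The summed signal of 10 markers of round and later spermatids was 24720 to 34672 in knockout spermatocytes and 5787 to 9189 in wild type spermatocytes, and 192458 to 195105 in knockout spermatids and 154657 to 156667 in wild type spermatids. That of 10 spermatocyte markers was 24257 to 25590 in knockout spermatids and 30888 to 32064 in wild type spermatids. In such bulk samples, fewer cells of a type and less RNA per cell cannot be told apart.

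Of the 4 measured parents 3 were much higher in spermatids than in spermatocytes. In wild type, Cstf2, Utp14a and Cetn2 were 31.2-fold, 10.2-fold and 6.04-fold higher in spermatids than in spermatocytes, and the probe set that stands for Pdha1 was not called. Cstf2, Utp14a and Cetn2 had spermatocyte signals under 100, so the size of these folds is uncertain. Of the retrogenes, Utp14b was higher in spermatids, Cstf2t and Pdha2 were lower and Cetn1 was not called. In all, 9 of the 14 probe sets were called in the knockout, 7 higher and 2 lower, where 63% of all probe sets were called (34.2% higher and 28.7% lower). In wild type 8 were called, 6 higher and 2 lower, where 53.3% of all were called (26% higher and 27.3% lower). Both shares of the members are near those of the array as a whole. With the medians of expressed autosomal probe sets made equal between arrays, 13 of the 14 were called in the knockout and 12 in wild type, where 31211 of all probe sets were higher and 8684 lower in the knockout and 27595 were higher and 9350 lower in wild type, against 15411 and 12942 in the knockout and 11720 and 12296 in wild type as deposited. Among single-gene X-linked probe sets, 50% were higher and 5.77% lower in spermatids in the knockout, and 36.4% were higher and 9.94% lower in wild type.

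**Figure D1:**
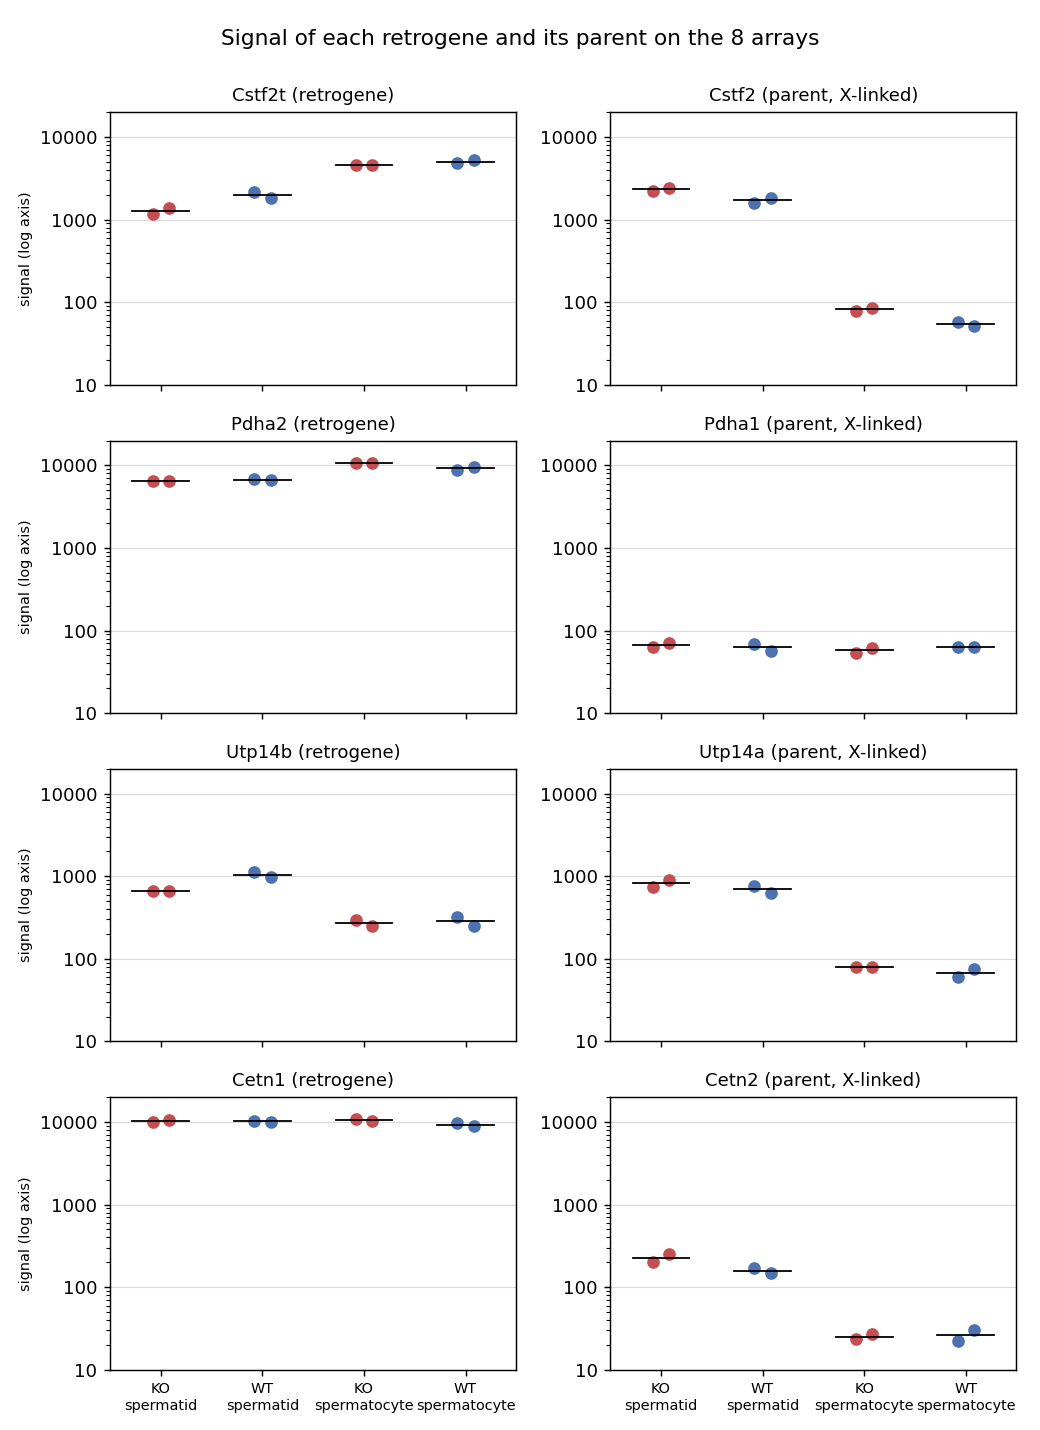
Signal (log axis, the same range in every panel) of the probe set that stands for each gene, on each of the 8 arrays, with retrogenes on the left and X-linked parents on the right. Points are arrays, red for knockout and blue for wild type, and bars are means of 2 arrays. Cstf2, Utp14a and Cetn2 sit higher on all 4 spermatid arrays than on all 4 spermatocyte arrays, and Cstf2t and Pdha2 sit lower.

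Among the parents, Cstf2 had a signal of 2249.6 and 2410.4 in knockout spermatids and 1576 and 1853 in wild type spermatids, against 79.1 and 84.7 in knockout spermatocytes and 58.3 and 51.5 in wild type spermatocytes. The spermatid and spermatocyte arrays were far apart, and the log2 fold change between the cell types was 4.83 in knockout cells and 4.96 in wild type (SE 0.13, adjusted p = 3.51e-09 and 1.54e-09 by limma). Utp14a had 746 and 891 in knockout spermatids and 753 and 633 in wild type spermatids, against 79.9 and 79.5 in knockout spermatocytes and 60.2 and 75.5 in wild type spermatocytes. Again no spermatid array came near a spermatocyte array, with log2 fold changes of 3.36 in knockout cells and 3.36 in wild type (SE 0.15, adjusted p = 2.3e-08 and 2.29e-08 by limma). The Cetn2 probe set that stands for the gene had 201 and 255 in knockout spermatids and 169 and 147 in wild type spermatids, against 23.3 and 26.8 in knockout spermatocytes and 22.2 and 30.7 in wild type spermatocytes. Its log2 fold changes were 3.18 in knockout cells and 2.59 in wild type (SE 0.18, adjusted p = 1.06e-07 and 5.47e-07 by limma). The second Cetn2 probe set gave 3.93 in knockout cells and 2.81 in wild type (adjusted p = 4.81e-09 and 2.77e-08 by limma), while the dimmest of the 3 Cstf2 probe sets was not called (0.26 and 0.25, adjusted p = 0.0585 and 0.0741). In spermatocytes all 3 genes had a signal under 100 on each of the 4 arrays, and both Cetn2 probe sets were under the median signal of the arrays, 43.2 to 43.9. The deposited values carry no call of detection, so the size of a fold change over such a signal is uncertain and the 3 genes were not ranked.

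Pdha1 was the exception among the parents. Its brighter probe set had 63.2 and 70.1 in knockout spermatids and 69.6 and 57.0 in wild type spermatids, against 53.1 and 62.2 in knockout spermatocytes and 64.0 and 62.4 in wild type spermatocytes, so that the cell types overlapped, and it was not called (log2 fold change 0.21 in knockout cells and -0.01 in wild type, adjusted p = 0.203 and 0.976 by limma). With equal autosomal medians it was called higher in spermatids in both genotypes, by 0.82 in knockout cells and 0.36 in wild type. The dimmer Pdha1 probe set had 91.5 and 82.1 in knockout spermatids and 61.7 and 73.3 in wild type spermatids, against 39.3 and 36.3 in knockout spermatocytes and 43.1 and 42.2 in wild type spermatocytes. It was higher on every spermatid array and was called in both genotypes, with log2 fold changes of 1.20 in knockout cells and 0.66 in wild type (adjusted p = 1.34e-05 and 0.00127 by limma). Both Pdha1 probe sets had signals under 100 on all 8 arrays, so this gene was measured near the lower end of the range.

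The retrogenes did not follow a common course. Cstf2t had a signal of 1157 and 1385 in knockout spermatids and 2177 and 1832 in wild type spermatids, against 4573 and 4562 in knockout spermatocytes and 4807 and 5316 in wild type spermatocytes. All spermatid arrays were below all spermatocyte arrays, and Cstf2t fell by 1.85 on the log2 scale in knockout cells and by 1.34 in wild type (SE 0.14, adjusted p = 7.78e-07 and 1.1e-05 by limma). Pdha2 had 6483 and 6532 in knockout spermatids and 6763 and 6727 in wild type spermatids, against 10765 and 10617 in knockout spermatocytes and 8897 and 9697 in wild type spermatocytes. The arrays of the cell types were separate here too, with log2 fold changes of -0.72 in knockout cells and -0.46 in wild type (SE 0.11, adjusted p = 0.000211 and 0.00445 by limma). The Pdha2 difference was small beside a choice of scaling: with equal autosomal medians it was -0.11 in knockout cells and -0.09 in wild type cells, without a call.

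Utp14b was the only retrogene of these pairs called higher in spermatids. It had 663 and 669 in knockout spermatids and 1118 and 977 in wild type spermatids, against 294 and 251 in knockout spermatocytes and 322 and 249 in wild type spermatocytes. No spermatid array overlapped with a spermatocyte array, and the log2 fold change was 1.29 in knockout cells and 1.88 in wild type (SE 0.15, adjusted p = 2.78e-05 and 1.58e-06 by limma). Acsl3, the long-chain acyl-CoA synthetase gene with which it shares an annotated start, went the other way, with a mean signal of 51.9 in knockout spermatids and 59.5 in wild type spermatids, against 689 in knockout spermatocytes and 707 in wild type spermatocytes, on its brightest probe set of 3 (log2 fold change -3.57 in wild type, adjusted p = 3.39e-08 by limma). Prkg1, the cGMP-dependent kinase gene around Cstf2t, had mean signals of 52.8 in knockout spermatids and 82.5 in wild type spermatids, against 39.5 in knockout spermatocytes and 44.4 in wild type spermatocytes, with a log2 fold change of 0.91 between the cell types in wild type (adjusted p = 0.000797 by limma), the opposite sign to that of Cstf2t.

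Cetn1, at chr18:9618419-9619469 on the same annotation, had 9950.5 and 10439 in knockout spermatids and 10315 and 9977 in wild type spermatids, against 10769 and 10174 in knockout spermatocytes and 9619.6 and 8857 in wild type spermatocytes. The 4 groups overlapped or lay next to each other, and neither this probe set nor the dimmer one (0.03 in knockout cells and 0.23 in wild type) was called between the cell types (log2 fold changes -0.04 in knockout cells and 0.14 in wild type, adjusted p = 0.778 and 0.33 by limma). Its direction depended on the scaling, since with equal autosomal medians it was called higher in spermatids, by 0.57 in knockout cells and 0.51 in wild type, and after cyclic loess in the knockout, by 0.29.

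**Figure D2:**
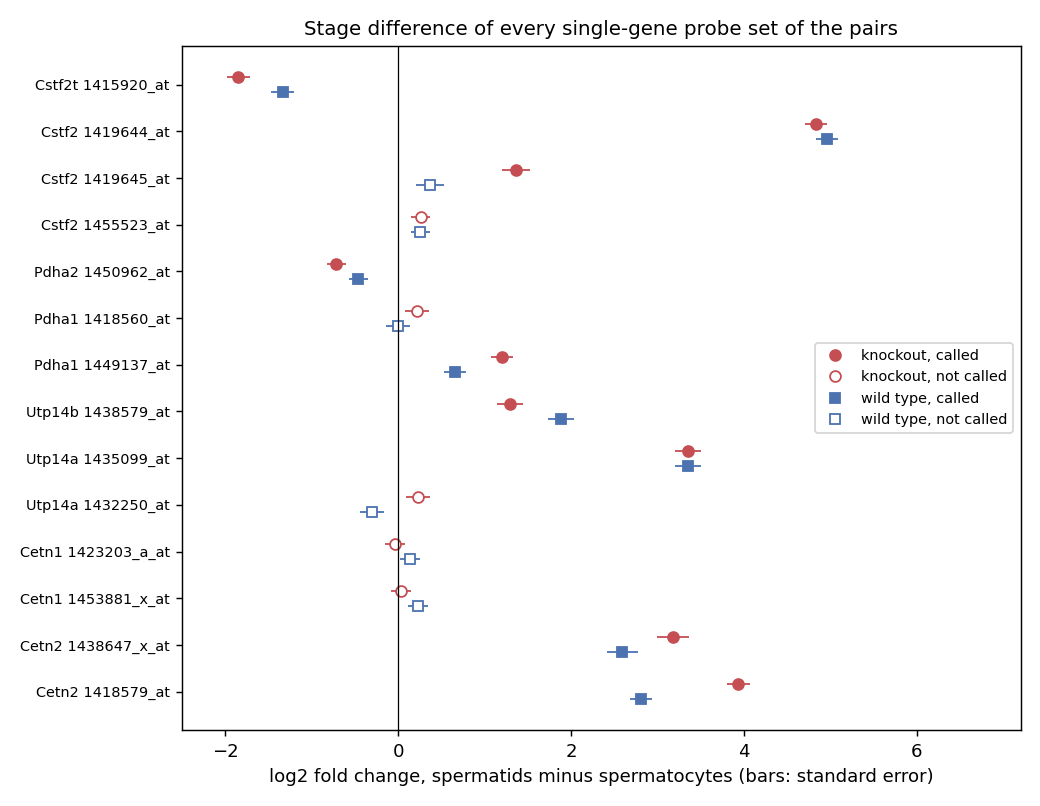
Log2 fold change between spermatids and spermatocytes of all 14 single-gene probe sets, in knockout (red circles, above) and wild type (blue squares, below), with the standard error as bars and filled symbols where limma's adjusted p was under 0.05. The parents Cstf2, Utp14a and Cetn2 lie far to the right, Cstf2t and Pdha2 lie to the left of 0, and the dimmer probe sets of Cstf2 and Utp14a lie near 0 in wild type.

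Set against each other within an array, each retrogene was lower relative to its parent in spermatids than in spermatocytes. The log2 difference, retrogene minus parent, for Cstf2t and Cstf2 was -0.96 and -0.80 in knockout spermatids and 0.47 and -0.02 in wild type spermatids, against 5.85 and 5.75 in knockout spermatocytes and 6.37 and 6.69 in wild type spermatocytes. It averaged -0.33 ± 0.67 over the 4 spermatid arrays and 6.17 ± 0.44 over the 4 spermatocyte arrays (SD), a shift of -6.49. For Cetn1 and Cetn2 the means were 5.75 ± 0.33 in spermatids and 8.59 ± 0.30 in spermatocytes, a shift of -2.84. For Utp14b and Utp14a they were 0.15 ± 0.52 in spermatids and 1.92 ± 0.35 in spermatocytes, a shift of -1.77, although both copies were higher in spermatids. For Pdha2 and Pdha1 they were 6.68 ± 0.15 in spermatids and 7.37 ± 0.23 in spermatocytes, a shift of -0.69. Since Cstf2, Utp14a and Cetn2 were dim in spermatocytes, the size of these shifts is uncertain and gives no order of the pairs. In each of the 4 pairs all spermatid arrays were below all spermatocyte arrays, which gives p = 0.0286 in a two-sided exact permutation test of 4 against 4 arrays, the smallest that this test can give. The difference itself depends on the probes and carries no order between the copies, and its shift shows only that the copies changed unequally. The call for Utp14b and Utp14a rested on the probe set chosen for Utp14a: with the mean over all single-gene probe sets of each copy the shift was -0.07 (exact p = 0.771). The second Utp14a probe set had signals of 12.9 to 18.9 on the 8 arrays and was not called between the cell types, with log2 fold changes of 0.23 in knockout cells and -0.30 in wild type. After cyclic loess between the arrays the shift for Pdha2 and Pdha1 was -0.33 (exact p = 0.0571).

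**Figure D3:**
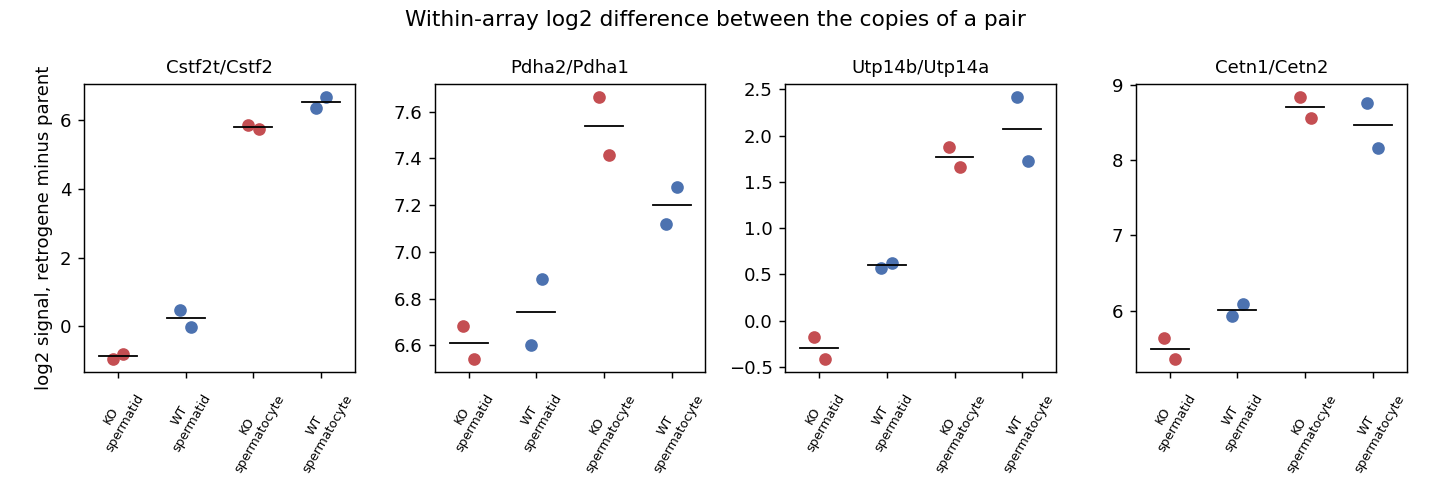
Within-array log2 difference, retrogene minus parent, for the 4 measured pairs on each of the 8 arrays (points, red for knockout and blue for wild type) with the mean of each group as a bar; each panel has its own axis. In every pair the 4 spermatid arrays lie below the 4 spermatocyte arrays.

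In Hr6b knockout spermatids, the called changes were lower levels of 2 retrogenes and higher levels of 2 parents. Of the 14 probe sets 4 were called, for Cstf2t, Cstf2, Utp14b and Cetn2, where 14.5% of all probe sets were called (4.83% higher and 9.63% lower). Of single-gene X-linked probe sets, 9.14% were higher and 1.24% lower. The balance of directions over the whole array depended on the scaling: 2175 probe sets were higher and 4339 lower as deposited, against 2476 and 2478 after cyclic loess and 8472 and 2261 with equal autosomal medians, a scaling that moved the median of all probe sets by 0.21 here and by 0.61 and 0.37 between the cell types in knockout cells and in wild type. Over the 4 retrogenes the median log2 fold change was -0.35 (-0.13 after cyclic loess and -0.14 with equal autosomal medians). It lay near none of the values, -0.66 for Cstf2t, -0.65 for Utp14b, -0.05 for Pdha2 and 0.01 for Cetn1. Over the 4 parents the median was 0.34 (0.45 and 0.55 under the same scalings). Over all probe sets it was 0.02 (0.11 over all X-linked probe sets and 0.25 over the 212 of them with a signal of 100 or more on at least 4 arrays). Expressed autosomal probe sets had a median log2 value of 8.14 and 8.22 on the knockout and 8.38 and 8.40 on the wild type spermatid arrays.

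Cstf2t, with 1157 and 1385 in knockout spermatids against 2177 and 1832 in wild type spermatids, had no overlap between the genotypes and fell by 0.66 on the log2 scale (SE 0.14, adjusted p = 0.0111 by limma). Its parent Cstf2, with 2249.6 and 2410.4 in knockout spermatids against 1576 and 1853 in wild type spermatids, rose by 0.45 (SE 0.13, adjusted p = 0.044 by limma), also without overlap. Both calls depended on single arrays. The Cstf2t call was lost without replicate 1 of the knockout spermatids (-0.53, adjusted p = 0.0895 by limma) or without replicate 1 of the wild type spermatids (-0.53, adjusted p = 0.0861), and after cyclic loess (-0.43, adjusted p = 0.0675). The Cstf2 call was lost without any of the 4 spermatid arrays or either knockout spermatocyte array, with values from 0.33 to 0.56 and limma's adjusted p from 0.0577 to 0.233, and in a fit of the 4 spermatid arrays by themselves (adjusted p = 0.0686).

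Utp14b, with 663 and 669 in knockout spermatids against 1118 and 977 in wild type spermatids, fell by 0.65 (SE 0.15, adjusted p = 0.0178 by limma). The genotypes did not overlap, but the call was lost without replicate 1 or 2 of the knockout spermatids (adjusted p = 0.0942 and 0.0702 by limma), without replicate 1 of the wild type spermatids (adjusted p = 0.115), and under both other scalings (-0.40 after cyclic loess and -0.44 with equal autosomal medians, adjusted p = 0.119 and 0.0648). Utp14a, with 746 and 891 in knockout spermatids against 753 and 633 in wild type spermatids, overlapped between the genotypes and was not called (0.24, adjusted p = 0.346 by limma), but was called with equal autosomal medians (0.45, adjusted p = 0.0463). Acsl3 was not called on any of its 3 probe sets in knockout spermatids, with log2 fold changes of -0.22, 0.13 and 0.26. Prkg1 had -0.64 on its brighter probe set (adjusted p = 0.0279 by limma) and -0.73 on the other, without a call (adjusted p = 0.102), the same sign as Cstf2t. Both Prkg1 probe sets were under 100 on all 8 arrays. Every Acsl3 probe set was under 100 on the spermatid arrays, so the values of both genes are uncertain here.

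Cetn2 gave the largest log2 fold change between the genotypes among the 14 probe sets. On its second probe set it had 219 and 265 in knockout spermatids against 114 and 109 in wild type spermatids, a log2 fold change of 1.11 (SE 0.13, adjusted p = 0.000848 by limma), and with 1 array left out at a time it stayed called, at 0.97 to 1.25. On the probe set that stands for the gene, whose suffix x marks probes that can match other transcripts, it had 201 and 255 in knockout spermatids against 169 and 147 in wild type spermatids. The direction was the same and the genotypes did not overlap, but it was called only with equal autosomal medians (0.73, adjusted p = 0.0155) and not as deposited (0.52, adjusted p = 0.084 by limma). Its retrogene Cetn1 had 9950.5 and 10439 in knockout spermatids against 10315 and 9977 in wild type spermatids, overlapping between the genotypes (0.01, adjusted p = 0.979 by limma).

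Neither copy of the pyruvate dehydrogenase subunit was called in knockout spermatids. Pdha2 had 6483 and 6532 in knockout spermatids against 6763 and 6727 in wild type spermatids (-0.05, adjusted p = 0.808 by limma), with a positive sign under both other scalings. The brighter Pdha1 probe set had 63.2 and 70.1 in knockout spermatids against 69.6 and 57.0 in wild type spermatids (0.08, adjusted p = 0.765 by limma) and the dimmer had 91.5 and 82.1 in knockout spermatids against 61.7 and 73.3 in wild type spermatids (0.37, adjusted p = 0.0855 by limma). The summed signals of markers of other cells differed between the genotypes in spermatids as well. For 6 measured markers of spermatogonia and early meiotic cells the sum was 473 to 503 in knockout and 314 to 368 in wild type spermatids, with 2 called higher. For 5 macrophage markers it was 570 to 620 in knockout and 473 to 489 in wild type spermatids, with 1 called higher. Among all probe sets, 4.83% were higher and 9.63% lower in this comparison. Of the 6 markers 2 reached a mean signal of 100 in knockout and none in wild type spermatids, and of the 5 macrophage markers 2 did in each. For 10 Sertoli cell markers it was 1047 to 1063 in knockout and 1117 to 1194 in wild type spermatids, with 2 called higher and 1 lower. Only 2 of these 10 reached a signal of 100, and against the direction of the sum 9 of the 10 had a positive log2 fold change (median 0.40). After cyclic loess 1 of the 10 was called higher and none lower, and with equal autosomal medians 5 were higher and 1 lower. Of 10 spermatocyte markers 2 were lower and none higher in knockout spermatids (median -0.30), with none lower after cyclic loess and 1 lower with equal autosomal medians. Of 10 markers of round and later spermatids 1 was higher and none lower (median 0.34, with 2 higher under each other scaling). The part of all these markers in the values of the pairs was not tested.

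**Figure D4:**
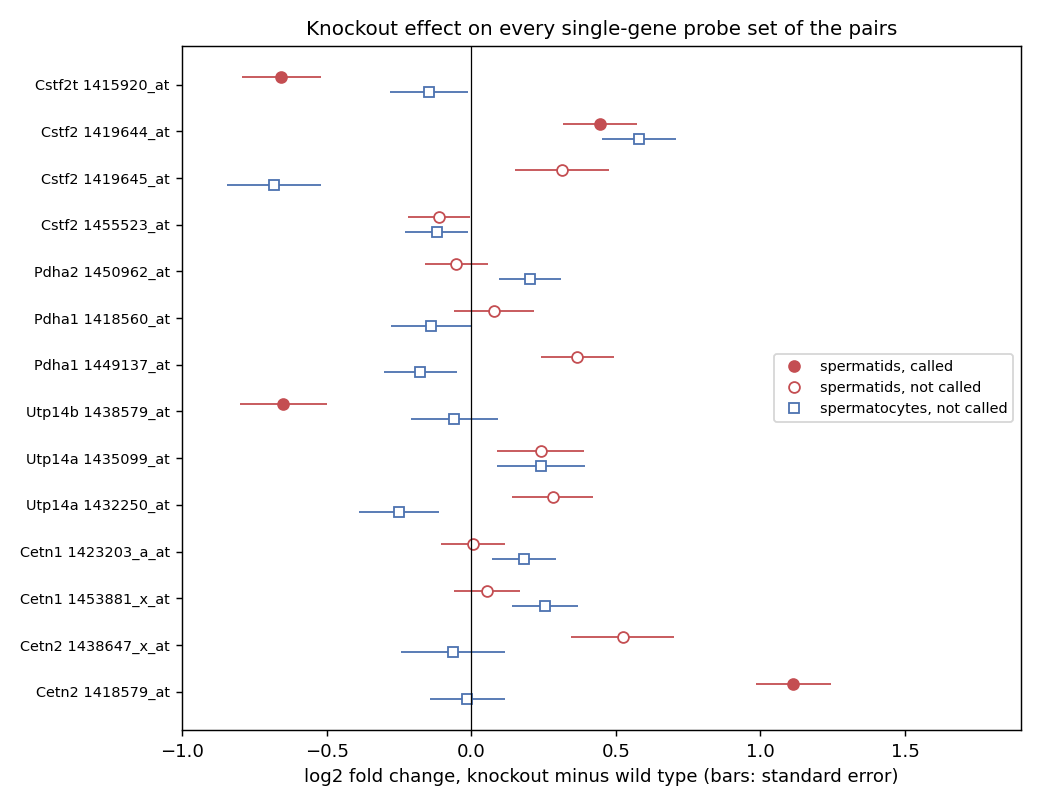
Log2 fold change between knockout and wild type of all 14 single-gene probe sets, in spermatids (red circles, above) and spermatocytes (blue squares, below), with the standard error as bars and filled symbols where limma's adjusted p was under 0.05. The 4 filled symbols are spermatid values, to the left of 0 for Cstf2t and Utp14b and to the right for a probe set each of Cstf2 and Cetn2.

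In Hr6b knockout spermatocytes none of the 14 probe sets was called by limma, where 1.59% of all probe sets were called (1.18% higher and 0.413% lower), and 2 had an unadjusted p under 0.05. Both were of Cstf2 and went opposite ways, since a dimmer probe set was lower in the knockout (-0.68, adjusted p = 0.0873 by limma). With an intensity trend in the spread, 1 of the 14 was called. This was the brightest Cstf2 probe set, with 79.1 and 84.7 in knockout spermatocytes against 58.3 and 51.5 in wild type spermatocytes. The genotypes did not overlap on this probe set, with a log2 fold change of 0.58 (SE 0.13, adjusted p = 0.0613 by limma, against 0.0482 with the trend). With dim probe sets left out its adjusted p was 0.0393, but it was under 100 on all spermatocyte arrays and passed that filter through its spermatid arrays alone. The markers of round and later spermatids moved with it: 8 of 10 were called higher and none lower in knockout spermatocytes, and all 10 had a signal of 100 or more there. Their part in the Cstf2 value was not tested. Utp14a had 79.9 and 79.5 in knockout spermatocytes against 60.2 and 75.5 in wild type spermatocytes (0.24, adjusted p = 0.653 by limma) and Cetn2 23.3 and 26.8 in knockout spermatocytes against 22.2 and 30.7 in wild type spermatocytes (-0.06, adjusted p = 0.957). Of the retrogenes, Pdha2 and Cetn1 were higher on both knockout spermatocyte arrays than on both wild type arrays, by 0.20 and 0.18, and Cstf2t was lower on both, by -0.15, none of which was called (limma's adjusted p from 0.565 to 0.803).

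The genotypes were also compared through the difference between the copies within an array. In spermatids the knockout shifted it by -1.10 for Cstf2t and Cstf2, by -0.89 for Utp14b and Utp14a, by -0.52 for Cetn1 and Cetn2 and by -0.13 for Pdha2 and Pdha1. In spermatocytes the shifts were -0.72, -0.30, 0.24 and 0.34 in the same order. In a two-sided exact permutation test of the genotypes within each cell type, which cannot give a p below 0.0556, p was 0.0556, 0.111, 0.611 and 0.5, so that no pair could pass the threshold and none did.

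The knockout effect differed between the cell types for 2 of the 14 probe sets, where 4.6% of all probe sets were called in this comparison (1.46% with a positive and 3.14% with a negative difference). Both were for parents. For Cetn2, on its second probe set, the difference was 1.13 (SE 0.18, adjusted p = 0.014 by limma), with 16.8 and 14.8 in knockout spermatocytes against 15.7 and 16.1 in wild type spermatocytes, where the groups overlapped. For Cstf2, on a dimmer probe set, it was 1.00 (SE 0.23, adjusted p = 0.0418 by limma). This probe set had 54.3 and 68.1 in knockout spermatids and 56.5 and 42.3 in wild type spermatids, against 24.1 and 23.2 in knockout spermatocytes and 36.04 and 40.03 in wild type spermatocytes. The call was kept without replicate 1 of the wild type spermatocytes and was lost without any other array (0.79 to 1.21, adjusted p from 0.051 to 0.135 by limma), and the Cetn2 call was lost without either knockout spermatocyte array or either wild type spermatid array. In spermatocytes both probe sets were under the median signal of their arrays. There the sign of the Cstf2 probe set was opposite to that of the brightest Cstf2 probe set (-0.68, adjusted p = 0.0873 by limma). It was called higher in spermatids in the knockout (1.36) and not in wild type (0.36), so the Cstf2 probe sets disagree in size and, in spermatocytes, in direction. The Cstf2t and Utp14b values in spermatids were not shown to differ from those in spermatocytes (adjusted p = 0.155 and 0.138 by limma).

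Rpl10 could be followed only together with the pseudogene Gm5621. The brighter of the 2 joint probe sets had 893 and 1032 in knockout spermatids and 1045 and 994 in wild type spermatids, against 1153 and 1191 in knockout spermatocytes and 1185 and 1408 in wild type spermatocytes. All 4 spermatocyte arrays were above all 4 spermatid arrays, and the log2 fold change between the cell types was -0.29 in knockout cells and -0.34 in wild type (adjusted p = 0.075 and 0.0466 by limma). The sign in wild type turned under both other scalings (0.02 after cyclic loess and 0.03 with equal autosomal medians). The dimmer joint probe set had 174 and 249 in knockout spermatids and 239 and 247 in wild type spermatids, against 269 and 307 in knockout spermatocytes and 338 and 370.4 in wild type spermatocytes (log2 fold changes -0.47 in knockout cells and -0.54 in wild type, adjusted p = 0.0311 and 0.0185 by limma). In the knockout its sign turned under both other scalings. The share of the signal that came from Rpl10, Gm5621 or Rpl10l cannot be told apart.

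The partners of these proteins were described from lists of their complexes. Of 13 cleavage and polyadenylation factors, 6 were higher and 6 lower in spermatids than in spermatocytes in wild type. Of all probe sets, 26% were higher and 27.3% lower. The median log2 fold change of the list was -0.26 against 0.10 over all probe sets (0.11 for the list with equal autosomal medians). In knockout spermatids, 4.83% of all probe sets were higher and 9.63% lower than in wild type spermatids. Of the 13 factors 1 was higher there and 4 were lower (median -0.33 against 0.02). The lower calls depended on the scaling, since under each of the other scalings none of the 13 was lower and 2 were higher. The 4 lower genes as deposited were Wdr33, Cpsf4, Cpsf2 and Nudt21, at -0.52, -0.45, -0.43 and -0.40, and the higher gene was Sympk, the scaffold protein symplekin, at 0.45. Cstf1 and Cstf3, the other subunits of the cleavage stimulation factor, were not called there (-0.08 and -0.37). In wild type Cstf1 was higher in spermatids, with a mean signal of 2226 in wild type spermatids against 1168 in wild type spermatocytes, and Cstf3, the subunit that bridges the others, was lower, with 1199.9 in wild type spermatids against 2674 in wild type spermatocytes.

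Among 10 genes of the pyruvate dehydrogenase complex and its regulators, 4 were higher and 4 lower in wild type spermatids than in wild type spermatocytes (4 and 3 after cyclic loess, 5 and 2 with equal autosomal medians, with a median of 0.37), where 53.3% of all probe sets were called. As deposited, the catalytic genes Pdhb, Dlat and Dld were lower, at -0.90, -0.78 and -0.50. The kinase gene Pdk3, which encodes an inhibitor of the complex, had a mean signal of 3385 in wild type spermatids against 148 in wild type spermatocytes, and the phosphatase gene Pdp1, which encodes an activator, had 1185 in wild type spermatids against 60.5 in wild type spermatocytes. In knockout spermatids Pdk3 was higher (0.44) and Dlat and Pdhx were lower (-0.51 and -0.47) than in wild type spermatids, but none of the 10 was called lower under either other scaling. As deposited, 4.83% of all probe sets were higher there and 9.63% lower.

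Of 21 genes of the small-subunit processome, 16 were lower and 1 was higher in wild type spermatids than in wild type spermatocytes. Of all probe sets, 27.3% were lower and 26% higher in this comparison. The median log2 fold change of the 21 genes was -0.99 (-0.57 after cyclic loess and -0.62 with equal autosomal medians), while Utp14b and Utp14a were both higher. The higher gene was Nop14, another protein of this complex, with 2296 in wild type spermatids against 751 in wild type spermatocytes. In knockout spermatids, 4.83% of all probe sets were higher and 9.63% lower than in wild type spermatids. Of the 21 genes none was higher there and 3 were lower, Wdr75, Utp20 and Nop14, at -1.25, -0.59 and -0.56. After cyclic loess 3 were higher and 1 lower there, and with equal autosomal medians 4 were higher and 3 lower.

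Of 6 centrin genes and genes for binding partners of centrins, 2 were higher and 2 lower in wild type spermatids than in wild type spermatocytes, against 4 and 2 under both other scalings. Of all probe sets as deposited, 26% were higher and 27.3% lower. In knockout spermatids, 4.83% of all probe sets were higher and 9.63% lower than in wild type spermatids. Of the 6 genes 1 was higher there and 2 were lower, and 1 was lower under each other scaling. Poc5, which encodes a centrin-binding protein of the centriole, had 775 in knockout against 1434 in wild type spermatids (-0.89), and Cetn3, another centrin gene, had 3777 in knockout spermatids against 5039.7 in wild type spermatids (-0.42), both lower, where Cetn2 was higher. Xpc, the DNA damage sensor whose protein binds centrin 2, was higher (65.3 in knockout spermatids against 34.6 in wild type spermatids, 0.95). Of 27 genes of the large ribosomal subunit, 15 had a single-gene probe set, and 12 of these were lower and 2 higher in wild type spermatids than in wild type spermatocytes (median -0.71, and -0.54 and -0.34 under the other scalings). Of all probe sets, 27.3% were lower and 26% higher in that comparison. In knockout spermatids Rpl22 was higher (0.46) and none of the 15 was lower, where 4.83% and 9.63% of all probe sets were.

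Other retrogenes with an X-linked parent were described in the same way, to place these pairs among their kind. Of 13 listed, 11 were measured. In wild type, 26% of all probe sets were higher and 27.3% lower in spermatids than in spermatocytes. Of the 11 retrogenes 6 were higher and 2 lower, with a median log2 fold change of 0.45. Ubl4b, G6pd2 and Pgk2 had the lowest adjusted p. Ubl4b, a ubiquitin-like retrogene, had mean signals of 2569 in wild type spermatids against 63.4 in wild type spermatocytes, G6pd2, a copy of the glucose-6-phosphate dehydrogenase gene, had 564 in wild type spermatids against 14.4 in wild type spermatocytes, and Pgk2, the phosphoglycerate kinase of sperm, had 9295 in wild type spermatids against 1264 in wild type spermatocytes. D1Pas1, the copy of Ddx3x, and Cox7b2 were lower in spermatids, as Cstf2t was, at -0.70 and -0.67. Of their 12 listed parents 8 were measured, and 5 were higher in wild type spermatids and none lower, with a median of 0.69. Of single-gene X-linked probe sets, 36.4% were higher and 9.94% lower. With equal autosomal medians 8 of the 11 retrogenes and 7 of the 8 parents were higher, where 27595 of all 45037 probe sets were. The parents Cstf2, Utp14a, Cetn2 and Pdha1 had 4.96, 3.36, 2.59 and -0.01, and among these 8 Prps1 and Pgk1 had the highest values, 1.82 and 1.58. Only 1 of the 8 reached a mean signal of 100 in wild type spermatocytes, and 4 in wild type spermatids. The size of their fold changes is uncertain too and gives no order between the 2 sets of parents. Over the 212 X-linked probe sets with a signal of 100 or more on at least 4 arrays, which could pass through their spermatid arrays alone, the median was 2.74. That is above the value of the probe set that stands for Cetn2, 2.59, and below that of the second, 2.81.

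In knockout spermatids, 4.83% of all probe sets were higher and 9.63% lower than in wild type spermatids. Of the 11 other retrogenes 1 was higher there and none lower (median -0.03, with 2 higher under each other scaling). It was Ubl4b, with 4575 in knockout against 2569 in wild type spermatids (0.84, adjusted p = 0.0223 by limma). Ubl4b was also the retrogene called in knockout spermatocytes (1.76, adjusted p = 0.00326 by limma), where 1.18% of all probe sets were higher. Its mean signal in wild type spermatocytes was under 100. In knockout spermatocytes 8 of 10 markers of round and later spermatids were called higher as well, and their part in the Ubl4b value was not tested. Of the 8 parents 2 were higher and none lower in knockout spermatids (median 0.21), where 9.14% of single-gene X-linked probe sets were higher and 1.24% lower. With equal autosomal medians 4 were higher (median 0.42), and after cyclic loess 2 (median 0.11), with none lower under either. Pgk1 had 423 and 489 in knockout spermatids against 264 and 236 in wild type spermatids (0.87, adjusted p = 0.00214 by limma) and Ddx3x, an RNA helicase gene, had 174 and 206 in knockout spermatids against 132 and 131 in wild type spermatids (0.52, adjusted p = 0.0294 by limma), neither with overlap. Among 4 retrogenes with an autosomal parent, Papolb, Pabpc2, Rasl2-9 and Dnajb3, all were higher in wild type spermatids than in wild type spermatocytes (median 0.87), where 26% of all probe sets were. None of the 4 was called in knockout spermatids (1 higher under each other scaling), while of their parents Dnajb6 was lower there as deposited only (-0.42, adjusted p = 0.0428 by limma).

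**Figure D5:**
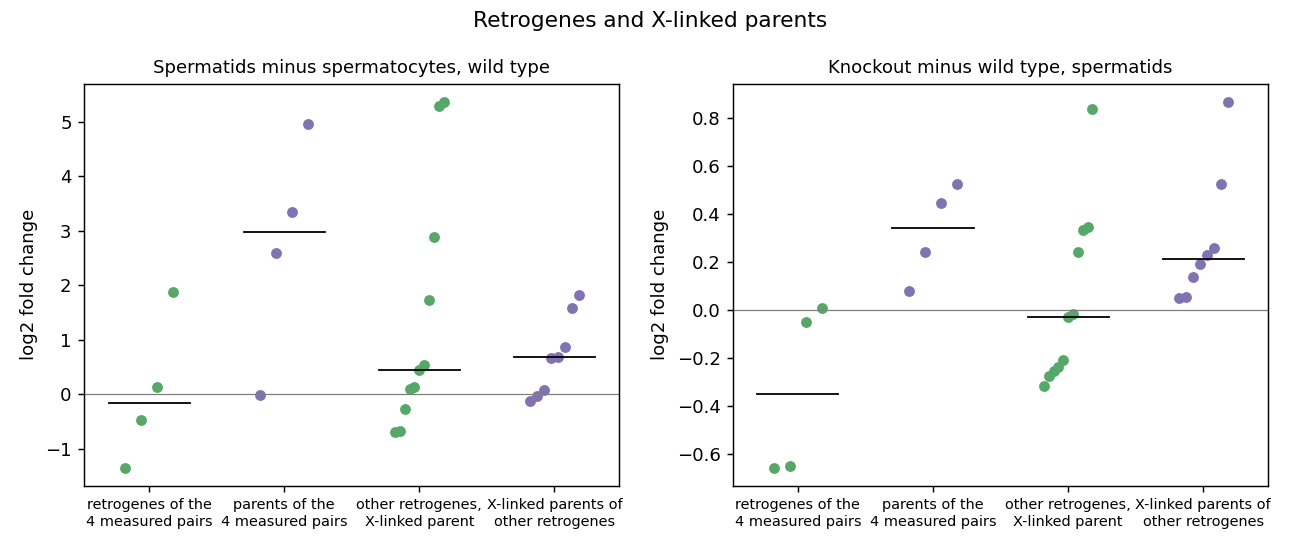
Log2 fold changes of the retrogenes (green) and X-linked parents (purple) of the 4 measured pairs and of the other pairs, between spermatids and spermatocytes in wild type (left) and between knockout and wild type in spermatids (right). Points are genes and bars are medians. Between knockout and wild type in spermatids the 4 retrogenes have a median of -0.35 and their parents 0.34, against -0.03 and 0.21 for the other pairs. The 4 retrogenes lie at -0.66, -0.65, -0.05 and 0.01, so their median is near none of them.

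The genes whose course over the 8 arrays was most like that of a member were ranked by the root mean square difference of log2 values, each centred on its own mean, over single-gene probe sets with a signal of 100 or more on at least 4 arrays. The nearest to Cstf2t were Heatr5b, Bub3 and Sbno1, with differences of 0.038, 0.057 and 0.066. The nearest to Cstf2 were Asns, Gm31875 and Abhd2 (0.112 to 0.127), and those nearest to Utp14b were Ctdp1, Rftn2 and Rfx8 (0.076 to 0.085). Utp14a had Trbv1, Wdr1 and Rpain (0.104 to 0.135) and Cetn2 had Spg20, Mrps36 and Tmem184c (0.149 to 0.165). Pdha2 had Mrps22, Ash2l and Npepps (0.043 to 0.054), Pdha1 had Slc35e1, Nup43 and Mcm7 (0.055 to 0.080) and Cetn1 had Hsbp1, Use1 and Mettl22 (0.041 to 0.050). None of these genes is X-linked, but at most 212 of the 15751 candidate probe sets were, so this says little. No member was the nearest of another, since member genes were left out.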

How the data were processed

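RNA of round spermatids and late spermatocytes from Hr6b knockout and wild type mice was hybridised to 8 Affymetrix arrays, 2 for each of the 4 groups. The deposited values are log2 expression values per probe set, which the authors background-corrected, normalized between arrays and summarized with RMA. They were used without further normalization. Probe sets were named from the platform annotation, with symbols updated by Entrez gene identifier on the RefSeq gene table of GRCm38.p6. Of 45037 probe sets other than the 64 controls, 34945 had 1 gene, 932 several and 9160 none, and those with several named no gene. The probe set with the highest mean log2 value over the 8 arrays stands for a gene.

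Group means were estimated from the 8 arrays together in limma 3.58.1 (R 4.3.3), with empirical Bayes moderation (4 residual and 5.85 prior degrees of freedom), and p-values were adjusted by Benjamini-Hochberg over all 45037 probe sets. The script was tested on simulated data. The difference between the copies of a pair was tested by exact permutation over arrays. Every probe set of the listed genes is reported. The members and the lists of other genes were chosen with earlier results of these data known. Alternatives were cyclic loess, equal medians of expressed autosomal probe sets, a filter on dim probe sets, an intensity trend, a replicate block, fits of 4 arrays, other probe sets, and each array left out in turn. Nothing in the labels ties the replicate numbers to shared preparations, and whether they mark them is not known.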

Additional observations from a re-analysis of the deposited data

Results flagged for a closer look

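For 2 probe sets of the parents, the effect of the knockout in spermatids was set apart from that in spermatocytes by limma's test of the difference itself. For the second Cetn2 probe set the difference was 1.13 on the log2 scale (adjusted p = 0.014 by limma), with log2 fold changes between knockout and wild type of 1.11 in spermatids and -0.01 in spermatocytes. For a dimmer Cstf2 probe set it was 1.00 (adjusted p = 0.0418 by limma), with 0.32 in spermatids and -0.68 in spermatocytes. The Cetn2 call was lost without either knockout spermatocyte array or either wild type spermatid array, with differences of 1.04 to 1.22 and adjusted p-values by limma of 0.0506 to 0.0594. The Cstf2 call was lost without any array except replicate 1 of the wild type spermatocytes, with differences of 0.79 to 1.21 and adjusted p-values of 0.051 to 0.135. The brighter probe set of each gene was not called in this comparison (0.59 for Cetn2 and -0.13 for Cstf2, adjusted p = 0.212 and 0.722 by limma).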

How the results depend on the processing

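Over the 14 probe sets and the 5 comparisons, 23 of 70 log2 fold changes were called. The alternatives were run on 43 values, those of the probe sets that stand for a gene in 4 comparisons, and those called of other and of joint Rpl10 probe sets, and 26 of the 43 were called. Under the alternatives that keep all arrays of a comparison, 220 of 248 recomputed values kept their direction and their side of the threshold, 12 lost and 6 gained a call, and 10 changed sign. After cyclic loess the sign turned in knockout spermatids for Pdha2 (0.15) and Pdha1 (-0.00043), and between the cell types for the brighter joint Rpl10 probe set in wild type (0.022) and for the dimmer one (0.18) and Cetn1 (0.29) in the knockout. With equal autosomal medians the corresponding values were 0.16 for Pdha2, 0.028 and 0.14 for the joint probe sets and 0.57 for Cetn1, and that of Pdha1 between the wild type cell types turned to 0.36. The shift between the cell types for Pdha2 and Pdha1 was -0.33 after cyclic loess, and that for Utp14b and Utp14a was -0.073 with the mean over all probe sets of each copy. Against 4 probe sets of members called in knockout spermatids there were 2 after cyclic loess and 8 with equal autosomal medians. Against 0 in knockout spermatocytes there was 1 with dim probe sets left out or with an intensity trend, and against 2 for the difference between the knockout effects there was 1 after cyclic loess or with dim probe sets left out and 4 with equal autosomal medians. The cause was not tested.

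With 1 array left out at a time, a lone array being assumed to vary like the other groups, between 1 and 5 probe sets of members were called in knockout spermatids, the count being 1 without the first array of either genotype and 2 without the second knockout array. The other ranges were 0 to 0 for knockout spermatocytes, 9 to 9 between the cell types in the knockout and 8 to 10 in wild type, and 0 to 2 for the difference between the knockout effects. The sign turned for values near 0. These were Pdha1 (-0.066 to 0.22) and Cetn1 (-0.028 to 0.041) in knockout spermatids, and Utp14b (-0.24 to 0.13) and Cetn2 (-0.30 to 0.17) in knockout spermatocytes. Between the cell types they were Pdha1 in wild type (-0.15 to 0.14) and Cetn1 in the knockout (-0.079 to 0.0025). The mean genotype shift over both cell types for Cetn1 and Cetn2 turned too (-0.28 to 0.010).

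The replicate numbers are not known to mark shared preparations, and same-numbered arrays of different groups deviated together with correlations from -0.23 to 0.22. With the replicate block, 3 probe sets of members were called in knockout spermatids and 1 for the difference between the knockout effects, as Cstf2 (adjusted p = 0.0563 by limma) and its dimmer probe set (0.056) lost their calls, and no other call of a member changed.

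Over all probe sets, 6514 were called in knockout spermatids, against 10733 with equal autosomal medians and 2588 to 7268 with an array left out, and 717 in knockout spermatocytes, against 80 in a fit of those 4 arrays and 119 to 999 with an array left out. Between the cell types 28353 were called in the knockout, against 15303 of the 17597 that were not dim, and 24016 in wild type, against 36945 with equal autosomal medians and 14898 of those not dim. For the difference between the knockout effects, 2073 were called, against 1197 after cyclic loess, 3241 with an intensity trend and 228 to 2197 with an array left out.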
